A study of Rattus norvegicus with 8 samples.

Results

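The respiratory chain genes described here are nuclear-encoded genes of the 5 complexes of oxidative phosphorylation, measured in rat alveolar macrophages at an early and a late passage of the same line. Members were chosen by name: genes whose names begin with Nduf, Uqcr, Atp5 or Cox4 to Cox8, together with Sdha, Sdhc and Sdhd. The names matched 121 probes of the array. The rule left out 20 of them placed on chromosome 7 in the file headers' assembly rn4, which belong to 12 genes, and 1 probe of Cox7b2. That left 100 of the 45598 distinct probes, for 76 of the 35897 genes named on the array. By name, 30 of these genes fell in complex I, 3 in II, 6 in III, 15 in IV and 12 in V. The core subunits Ndufs7 and Atp5b are not among these genes, so no statement on a complex covers them. Ndufa4 was counted in complex IV, where it is a known subunit. Complex IV also holds Cox6c-ps1, a pseudogene placed there by its name alone. The other 10 share a name but are assembly factors or related proteins. The names of the ATP synthase genes are the current RefSeq ones.

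Complex I takes electrons from NADH and complex II takes them from succinate. Ubiquinone, complex III and cytochrome c carry them on to complex IV, which reduces oxygen. Complexes I, III and IV pump protons across the inner mitochondrial membrane, and complex V, the ATP synthase, uses the proton gradient to make ATP. Macrophages also draw on this chain as a source of reactive oxygen species and shift between it and glycolysis when activated.

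NR8383 is a macrophage line set up from lung lavage of a normal rat and held by the American Type Culture Collection. It grows partly attached and partly floating, and both kinds of cell were present in the cultures. The study compared cells at passage 20 (P20) with cells at passage 200 (P200), both seeded in flasks 48 h before harvest and with no labelled treatment. There were 4 biological replicates per passage, each on 1 single-colour array. No genotype or added agent separates the groups, and passage is the labelled difference. How the replicate cultures relate to each other is known only from the word biological replicate, so the p-values measure the spread among these 8 samples, which may be technical. The line is a single established line, so each passage stands for that line alone.

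All 8 arrays lay on 1 slide and were read in 1 scan. The scanner software marked 51.02% to 54.47% of the spots of an array as well above background, and no spot as saturated. Pairs of arrays correlated at 0.993 to 0.996 within P20, 0.988 to 0.997 within P200 and 0.976 to 0.983 between passages, across genes, which are not independent replicates. P200 replicate 4 had the lowest signal, with a 75th percentile of 979 against 1349 to 1869 on the other arrays. Of 16 alveolar macrophage markers on the array, 11 were tested, and among them Ptprc, Cd68, Csf1r, Spi1, Tyrobp and Fcer1g were well above background on all 8 arrays. Adgre1, Car4, Cd74 and Chi3l1 were not well above background on any array, and Marco was on 1 P200 array. Siglec5, Itgam and Siglec1 were lower at P200 by limma, with log2 changes of -1.69, -0.78 and -0.56, and the median change of the 11 was -0.10. The share called was 27.3% of the 11, against 11.5% of all genes tested. Mrc1 had the most positive change of the 11, 0.51, with an adjusted p of 0.105 in limma. The part of these markers in the values of the respiratory chain genes was not tested. All 4 granulocyte markers and 4 of 6 lung epithelium markers were well above background on no array, and the lung markers Scgb1a1 and Sftpc were on 1 array each. Of 4 markers each of fibroblasts, endothelium and lymphocytes, Col1a2, Pecam1, Cdh5 and Cd3d were well above background on all 8 arrays, and none of these passed the test. Pecam1, which macrophages also carry, had means of 1.99 and 2.05 at P20 and P200.

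Levels are log2 processed signal less the 75th percentile of the array, so a level of 0 is as bright as that percentile. A change is the P200 mean less the P20 mean on that scale, given with the standard error (SE) of limma's moderated fit and with 4 arrays per group. A gene was represented by its brightest probe, by mean signal over the 8 arrays, among those that stood well above background on every array of at least 1 passage. By this filter 72 of the 76 members were tested, and all 72 were well above background on all 8 arrays. The 4 others were Ndufs4, an accessory subunit of complex I, with 3 arrays above background at each passage, Ndufc1, also of complex I, with 1 at each, and the complex IV isoforms Cox8b, with 1 at each, and Cox8c, with none.

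The respiratory chain genes as a group differed little between passages. No member was higher at P200 and 2 were lower at an adjusted p under 0.05 in limma: Cox6a2, a complex IV subunit isoform of heart and skeletal muscle, and Ndufaf7, a complex I assembly factor. The share called was 2.78% of the 72 members. Among all 15516 genes tested, 11.5% were called, 6.02% higher and 5.52% lower at P200. At an unadjusted p under 0.05, 1 member was higher and 5 were lower, 6 of 72, against 23.8% of all genes. The array gives RNA per unit of total RNA, so fewer cells with a transcript and less of it per cell cannot be told apart.

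The median change of the members was -0.00082, beside -0.00022 for all genes tested. Members were spread to both sides, with 35 positive and 37 negative changes between -0.94 and 0.33. Their changes were small: the median size was 0.07, against 0.12 for all genes, and 5.56% of members exceeded 0.25 in either direction against 23.2% of all genes. The members were bright, with a median level from 5.25 to 5.37 on each array. Whether other genes of that brightness changed as little was not tested. The members' precision was somewhat better than that of the array as a whole, with a median SE of 0.08 against 0.10. The unadjusted 95% interval of the change lay within 1.5-fold in either direction for 68 of the 72 members, or 94.4%, against 78.3% of all genes. The 4 members whose intervals reached beyond 1.5-fold were Cox6a2, Cox6b2, Cox6c-ps1 and Atp5mc3. In 6 members, or 8.33%, all 4 arrays of a passage lay above all 4 of the other, against 19.5% of all genes. These 6 were Cox6a2, Ndufaf7, Ndufaf5 and Cox8a, all lower at P200, and Atp5f1e and Uqcrh, higher at P200.

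**Figure D1:**
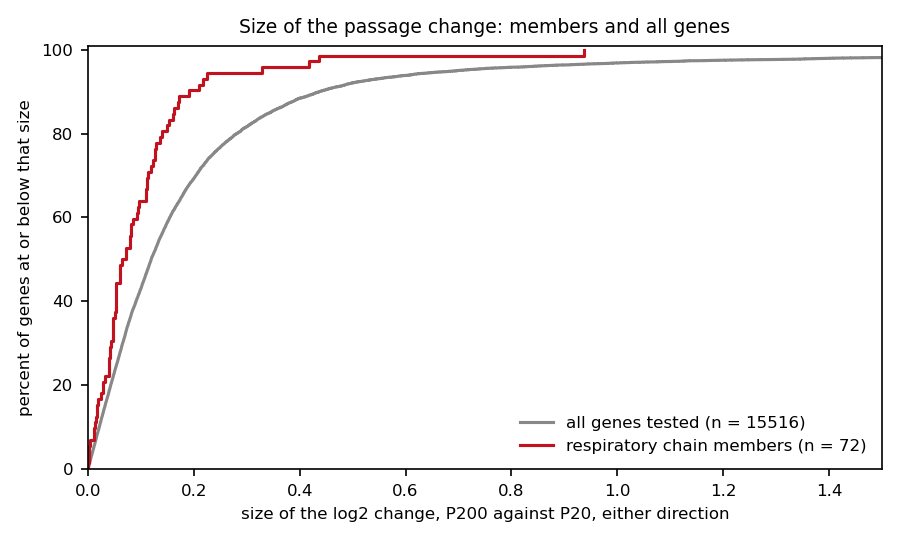
Percent of genes (vertical axis) whose log2 change between P200 and P20 was at or below a given size in either direction (horizontal axis), for the 72 respiratory chain members (red) and all 15516 genes tested (grey). The red line lies to the left of the grey one over most of the range, with median sizes of 0.07 and 0.12.

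Complex I, the NADH dehydrogenase, had 28 tested genes, of which 0 passed the limma test in either direction and 0 had an unadjusted p under 0.05. Changes ran from -0.15 in Ndufs5 to 0.19 in Ndufs3, with a median of 0.03. Every one of the 28 intervals lay within 1.5-fold. Ndufv1, the subunit that binds NADH and the flavin cofactor, was at 5.86, 5.87, 5.91 and 6.05 on the P20 arrays and at 5.88, 5.98, 5.89 and 6.04 on the P200 arrays. The ranges of the passages overlapped almost wholly, and the change was 0.03 ± 0.07 (SE, n = 4 per group). Ndufs1, the largest iron-sulphur subunit, was at 3.92, 3.98, 3.76 and 3.90 at P20 and at 3.798, 3.97, 4.01 and 3.95 at P200, a change of 0.04 ± 0.07. Ndufv2, which carries another iron-sulphur cluster of the same electron input module, changed by 0.05 ± 0.06.

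Ndufs3, of the ubiquinone-binding module, had the most positive change of the complex, 0.19 ± 0.10 with an adjusted p of 0.287 in limma. It was at 4.65, 4.55, 4.64 and 4.76 at P20 and at 4.72, 4.72, 4.81 and 5.10 at P200, and P200 replicate 4 was the highest array. Ndufs8, an iron-sulphur subunit of the same module, changed by -0.00065 ± 0.08. Ndufb7, an accessory subunit of the membrane arm, changed by 0.17 ± 0.10, and the accessory subunits Ndufs5 and Ndufa1 changed by -0.15 ± 0.08 and -0.13 ± 0.08.

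Probes of the same complex I gene did not always give the same value. For Ndufv3, an accessory subunit, the probe used gave -0.05 and the other gave 0.21. For Ndufb4, also accessory, 3 probes gave -0.02, 0.05 and 0.31, the last with an SE of 0.29. Ndufb4 was the only 1 of the 18 members with several tested probes whose probes lay more than 0.3 apart. Ndufa10 and Ndufa10l1 have near-identical names, and whether their probes separate the transcripts was not tested.

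Complex II, the succinate dehydrogenase, also belongs to the tricarboxylic acid cycle. The name rule takes in Sdha, Sdhc and Sdhd alone, so Sdhb is not covered. None of the 3 member genes passed the test, 0 had an unadjusted p under 0.05, and the median change was -0.05. Sdha, the flavoprotein that oxidises succinate, was at 4.89, 4.93, 4.86 and 4.93 at P20 and at 4.84, 4.87, 4.91 and 5.03 at P200. The passages overlapped, with a change of 0.01 ± 0.06 and an interval from -0.13 to 0.15. The membrane anchors Sdhc and Sdhd changed by -0.05 ± 0.06 and -0.08 ± 0.09. For Sdhd, P200 replicate 4 was the lowest array at 4.97, against 5.19 to 5.33 on the other 7.

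Complex III, the cytochrome bc1 complex, had 6 tested genes, with 0 past the test and 0 at an unadjusted p under 0.05. The median change was 0.05 and the range ran from -0.00098 in Uqcrfs1 to 0.12 in Uqcrh. Uqcrfs1, the Rieske iron-sulphur protein, was at 6.14, 6.03, 5.995 and 6.19 at P20 and at 5.99, 6.07, 6.06 and 6.22 at P200, with an interval of the change from -0.17 to 0.17. Its arrays interleaved. The core proteins Uqcrc1 and Uqcrc2 changed by 0.04 ± 0.10 and 0.05 ± 0.07. Uqcrh, the hinge protein that bridges cytochrome c1 and cytochrome c, was at 6.17, 6.03, 5.95 and 6.16 at P20 and at 6.18, 6.18, 6.21 and 6.23 at P200. All 4 P200 arrays lay above all 4 P20 arrays, and the adjusted p was 0.330 in limma. Uqcrq, a small accessory subunit, changed by 0.11 ± 0.09.

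Complex IV, cytochrome c oxidase, held 1 of the 2 called members. Of its 13 tested genes, 0 were higher and 1, Cox6a2, was lower, or 7.69% called against 11.5% of all genes tested. Cox6a2 alone had an unadjusted p under 0.05. The median change was -0.02. The widely expressed subunits did not pass. Cox4i1 was at 8.39, 8.30, 8.43 and 8.48 at P20 and at 8.31, 8.45, 8.35 and 8.73 at P200, a change of 0.06 ± 0.10, with P200 replicate 4 the highest array. Cox5a and Cox5b changed by -0.02 ± 0.06 and 0.06 ± 0.07. The other Cox5b probe went the other way, by -0.11 ± 0.08. Cox8a, the widely expressed form of the smallest subunit, was at 7.49, 7.48, 7.55 and 7.66 at P20 and at 7.41, 7.21, 7.40 and 7.48 at P200. Its P200 arrays all lay below its P20 arrays, by little, and the change was -0.17 ± 0.08 with an adjusted p of 0.214 in limma.

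Cox6a2 is the heart and skeletal muscle form of subunit VIa, and Cox6a1 is the form of most other tissues. Cox6a2 was at 0.20, 0.02, 0.13 and 0.22 on the P20 arrays and at -0.59, -1.09, -0.61 and -0.88 on the P200 arrays. The P200 arrays were all lower, and the gap between the passages was wider than the range within each. The change was -0.94 ± 0.12, or 1.91-fold lower at P200, with an adjusted p of 0.000988 in limma and an interval from -1.20 to -0.67. The other Cox6a2 probe, on rn4 at chr1:187464580-187464639, changed by -1.02, but it shares 53 of its 60 bases with the first and is no independent check. The probe was well above background on all 8 arrays. Leaving out each array in turn gave changes from -1.003 to -0.84, with adjusted p from 0.00130 to 0.00515.

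Cox6a1 did not pass the test. It was at 8.92, 8.88, 8.94 and 8.96 at P20 and at 8.79, 8.92, 8.82 and 8.98 at P200, a change of -0.05 ± 0.06 with an interval from -0.19 to 0.10. Within an array, the log2 ratio of the Cox6a2 to the Cox6a1 probe fell by 0.89 from P20 to P200. That pair was set side by side after its values were seen, so no test is given. Of 3 muscle markers, Ckm and Myh7 were above background on no array and Acta1 was on 2 P20 arrays and 1 P200 array.

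The other tissue-restricted isoforms of complex IV did not pass. Cox4i2, known as the isoform of lung and of low oxygen, was at 0.85, 1.02, 1.103 and 1.16 at P20 and at 0.92, 0.89, 0.85 and 0.87 at P200. The passages overlapped through P20 replicate 1, and the change was -0.15 ± 0.08 with an adjusted p of 0.274 in limma. Cox6b2, the testis form of subunit VIb, was at 2.49, 2.58, 2.78 and 2.89 at P20 and at 1.92, 2.59, 2.45 and 3.22 at P200. The P200 arrays lay on both sides of the P20 ones, and the interval of the change, from -0.69 to 0.41, leaves changes beyond 1.5-fold in range. Cox6c-ps1, a pseudogene placed here by its name, was at 0.48, 0.51, 0.46 and -0.52 at P20 and at 0.52, 0.85, 0.73 and 0.15 at P200. Its change of 0.33 ± 0.25 was 0.08 without P20 replicate 4, 2 of its 3 probes were above background on no array, and whether its probe separates it from near-identical copies was not tested.

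Complex V, the ATP synthase, had 12 tested genes, with 0 past the test in either direction. An unadjusted p under 0.05 was found in 2 of them, against 23.8% of all genes tested. The median change was -0.05. Atp5f1a, the alpha subunit of the catalytic head, was at 8.87, 8.81, 8.85 and 8.79 at P20 and at 8.82, 9.001, 8.90 and 9.08 at P200, a change of 0.12 ± 0.07. Atp5f1c, the gamma subunit of the rotor shaft, changed by -0.05 ± 0.06, and Atp5po, the peripheral stalk protein OSCP, by 0.14 ± 0.10. Atp5mg, a membrane subunit, changed by -0.11 ± 0.07.

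Atp5f1e, the epsilon subunit of the rotor, was at 7.23, 7.41, 7.10 and 7.28 at P20 and at 7.50, 7.44, 7.50 and 7.45 at P200. All P200 arrays were higher, with a change of 0.22 ± 0.07 and an adjusted p of 0.107 in limma. The other Atp5f1e probe gave 0.01. Atp5mc3 encodes subunit c, the protein of the proton-driven ring, which is made from several genes. It was at 3.38, 3.67, 3.57 and 3.78 at P20 and at 3.48, 3.35, 3.22 and 2.60 at P200. P200 replicate 4 was far the lowest array, and the change of -0.44 ± 0.18, with an adjusted p of 0.189 in limma, was -0.25 without it. Atp5mc1, which encodes the same mature protein, changed by 0.08 ± 0.12.

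**Figure D2:**
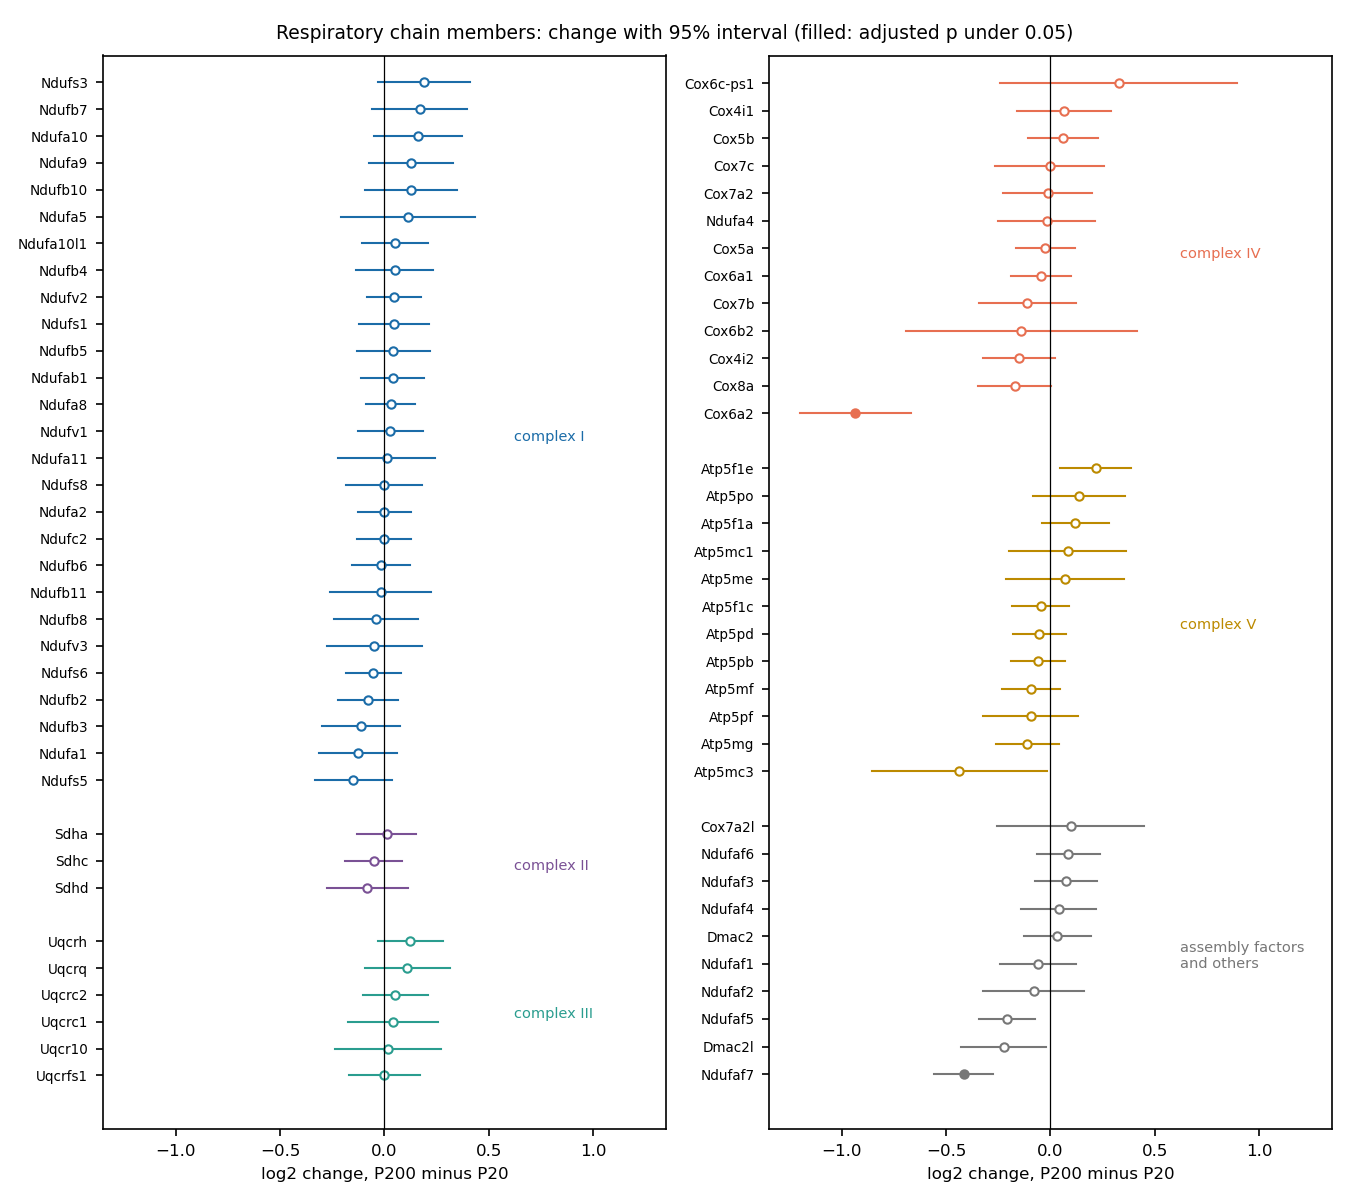
Log2 change from P20 to P200 (horizontal axis) of tested members, with its unadjusted 95% interval, by complex and ordered by size; colours mark the complexes and filled points an adjusted p under 0.05. The 2 filled points are Cox6a2 at -0.94 and Ndufaf7 at -0.42, and most of the open points lie close to 0.

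The 10 genes that share a name but are no structural subunit held the other call. Their median change was -0.01, with 0 higher and 1, Ndufaf7, lower, or 10% called against 11.5% of all genes tested. An unadjusted p under 0.05 was found in 3, against 23.8% of all genes. Ndufaf7 is a methyltransferase that acts in the assembly of complex I. It was at 1.31, 1.22, 1.20 and 1.27 at P20 and at 0.88, 0.90, 0.82 and 0.73 at P200. All P200 arrays were lower, by more than the range within either passage. The change was -0.42 ± 0.06, or 1.33-fold lower at P200, with an adjusted p of 0.00288 in limma and an interval from -0.56 to -0.27. The other Ndufaf7 probe, at rn4 chr6:1727031-1727090, shares no stretch with the first and changed by -0.61 ± 0.12. Its adjusted p was 0.0148 in limma fitted probe by probe. Leaving out each array in turn gave changes from -0.44 to -0.38 for the gene, with adjusted p from 0.00451 to 0.0131. Centring the arrays on their median in place of the 75th percentile gave -0.45 with an adjusted p of 0.892, and using all probes with no filter gave an adjusted p of 0.0524.

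Ndufaf5, a hydroxylase that also acts in complex I assembly, was at 2.93, 2.90, 2.95 and 3.02 at P20 and at 2.72, 2.79, 2.79 and 2.66 at P200. All P200 arrays were lower, and the change was -0.21 ± 0.06 with an adjusted p of 0.0581 in limma. Quantile normalization gave -0.21 with an adjusted p of 0.0491. Dmac2l, once named as an ATP synthase subunit, was at 0.79, 0.85, 0.82 and 1.05 at P20 and at 0.64, 0.84, 0.59 and 0.53 at P200. Its ranges overlapped, and the change was -0.23 ± 0.09 with an adjusted p of 0.162 in limma. Cox7a2l, which links complexes III and IV in supercomplexes, changed by 0.10 ± 0.15, with 1 low array at each passage. The assembly factors Ndufaf1, Ndufaf2, Ndufaf3 and Ndufaf4 changed by -0.06, -0.08, 0.07 and 0.04, each with an unadjusted interval that includes 0.

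The called members are shown with the sequences they bear on. The first is the array probe that stood for Ndufaf7, whose 60 bases span 959 bases of rn4 at chr6:1720961-1721919, so that it reads spliced RNA. The next are the 250 bases before the RefSeq start of the called members Cox6a2 and Ndufaf7, on the minus strand of GRCr8 at chr1:192219717-192219966 and chr6:21871966-21872215. The last is Ndufaf5, on the plus strand at chr3:147961362-147961611, shown because it holds the NRF1 core and had the next smallest p. Capitals mark CAGCTG and CTAAAAATA in Cox6a2, GGGCGG in Ndufaf7 and, in Ndufaf5, GCGCATGCG on both strands in matches that overlap.
Ndufaf7 probe: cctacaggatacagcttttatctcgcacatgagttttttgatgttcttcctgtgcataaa
Cox6a2 promoter: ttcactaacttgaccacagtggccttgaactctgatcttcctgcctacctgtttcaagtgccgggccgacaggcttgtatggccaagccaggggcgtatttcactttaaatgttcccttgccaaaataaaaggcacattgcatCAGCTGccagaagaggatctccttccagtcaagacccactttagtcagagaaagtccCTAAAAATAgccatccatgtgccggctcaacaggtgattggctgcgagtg
Ndufaf7 promoter: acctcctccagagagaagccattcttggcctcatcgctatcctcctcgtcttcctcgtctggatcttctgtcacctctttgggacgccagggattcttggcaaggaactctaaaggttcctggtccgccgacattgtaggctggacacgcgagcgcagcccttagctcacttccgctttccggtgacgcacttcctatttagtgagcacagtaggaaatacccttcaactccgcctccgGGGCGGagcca
Ndufaf5 promoter: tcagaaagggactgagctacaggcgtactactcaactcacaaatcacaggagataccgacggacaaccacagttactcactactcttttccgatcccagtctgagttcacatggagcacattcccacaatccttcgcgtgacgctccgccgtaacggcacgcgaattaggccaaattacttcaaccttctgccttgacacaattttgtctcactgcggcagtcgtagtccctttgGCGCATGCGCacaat

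NRF1 and GABP are transcription factors known to act on many nuclear genes of the respiratory chain, and MEF2 and the E-box factors of muscle act on muscle genes. The motifs were searched on both strands of the 250 bases before the start in 67 members with a RefSeq promoter entry and in all 27457 promoters of the same length. The letters CAGCTG and CTAAAAATA were chosen after the Cox6a2 promoter had been read, and the length of the NRF1 core was set after that of Ndufaf5 had been. GCGCATGCG, the NRF1 core, was in 7 member promoters (10.4%), Atp5me, Atp5mg, Atp5po, Ndufa11, Ndufaf4, Ndufaf5 and Uqcrc1, against 1.49% of all. The count includes Ndufaf5, after which its length was set. Among the 59 promoters of subunits, which leave out the assembly factors, it was in 5 (8.47%). CCGGAAG, the ETS core bound by GABP, was in 17 (25.4%), among them Atp5f1a, Cox5b, Cox8a, Ndufs1, Ndufs8, Sdhd, Uqcrc2 and Uqcrh, against 7.74%. GGGCGG, the GC box, was in 26 (38.8%) against 32.4%, and CAGCTG, an E-box form, in 9 (13.4%) against 11.9%.

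CTAAAAATA, a MEF2 form, was in 1 member promoter (1.49%), that of Cox6a2, at 50 bases before the start, against 0.463% of all. CAGCTG stood at 107 bases before that start. Both were chosen after the Cox6a2 promoter had been read, so their matches there were fixed beforehand and carry no comparison. TATAAA was in 5 member promoters (7.46%) against 13.1%. Member promoters also held more CG dinucleotides, with a median of 15 against 6, and more G and C, 56% against 52%, and the NRF1 and ETS cores contain CG themselves. A match describes the letters and is no binding site.

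**Figure D3:**
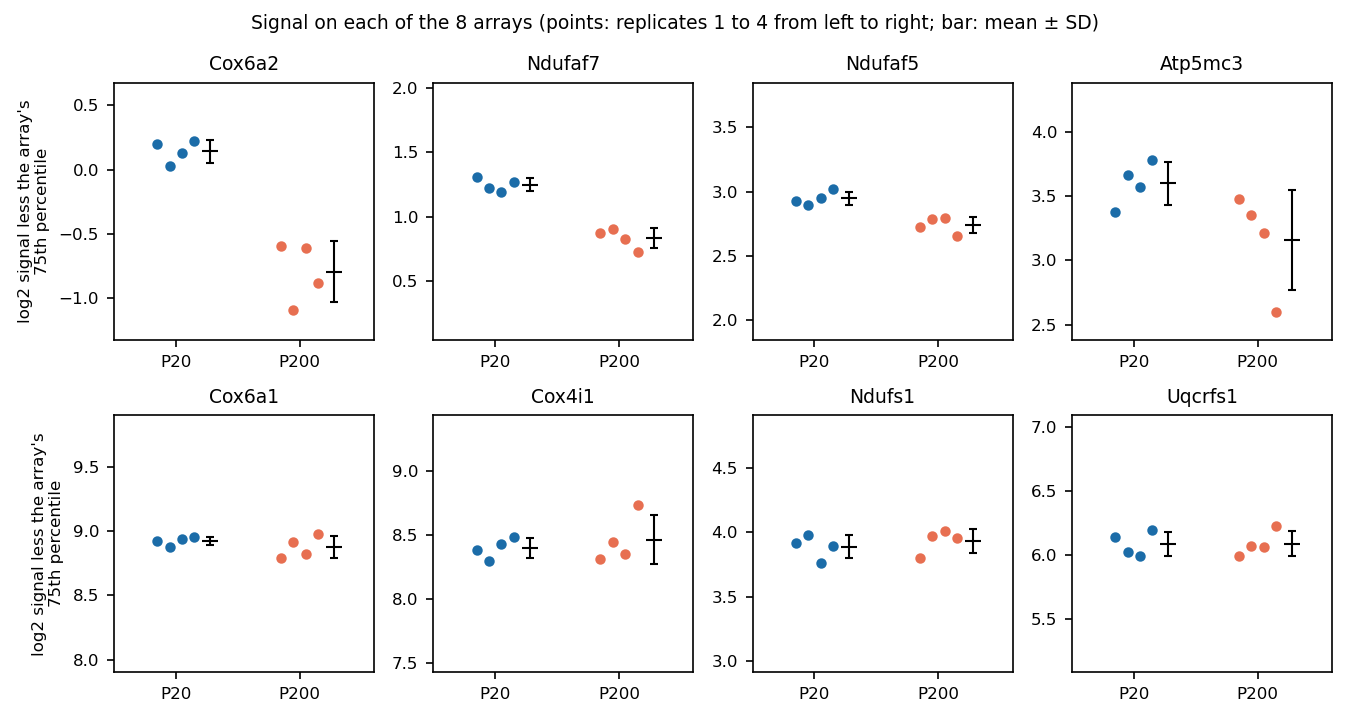
Log2 signal less the 75th percentile of the array (vertical axis, spanning the same width in each panel) on the 4 P20 arrays (blue) and the 4 P200 arrays (orange) for 8 members, with mean ± SD in black. The passages are apart in Cox6a2, Ndufaf7 and Ndufaf5, overlap with 1 far lower array in Atp5mc3 and overlap in Cox6a1, Cox4i1, Ndufs1 and Uqcrfs1.

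The arrays were placed in 2 rows of the slide, with P20 replicate 1 and P200 replicates 2, 3 and 4 in the first row and the others in the second. Within the first row Cox6a2 differed by -1.06 and Ndufaf7 by -0.49. Within the second they differed by -0.72 and -0.35. Each row holds 1 array of one passage, so these differences have no test. With the row as a block in limma the same 2 members were lower and 0 were higher.

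The complexes were also followed array by array, as the median over the genes of each complex of the signal less the mean of that gene over the 8 arrays. For all 72 members this was 0.01 ± 0.04 (SD, n = 4) at P20 and 0.00 ± 0.04 at P200. For complex I the values were -0.0027 ± 0.05 and 0.03 ± 0.08, and for complex IV 0.03 ± 0.04 and -0.03 ± 0.05. P200 replicate 4 was the most uneven array, with 0.13 for complex I and 0.11 for complex III, but -0.13 for complex II and -0.16 for the assembly factors and others. It was also the array of lowest signal, and the part of this in the values above was not tested.

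**Figure D4:**
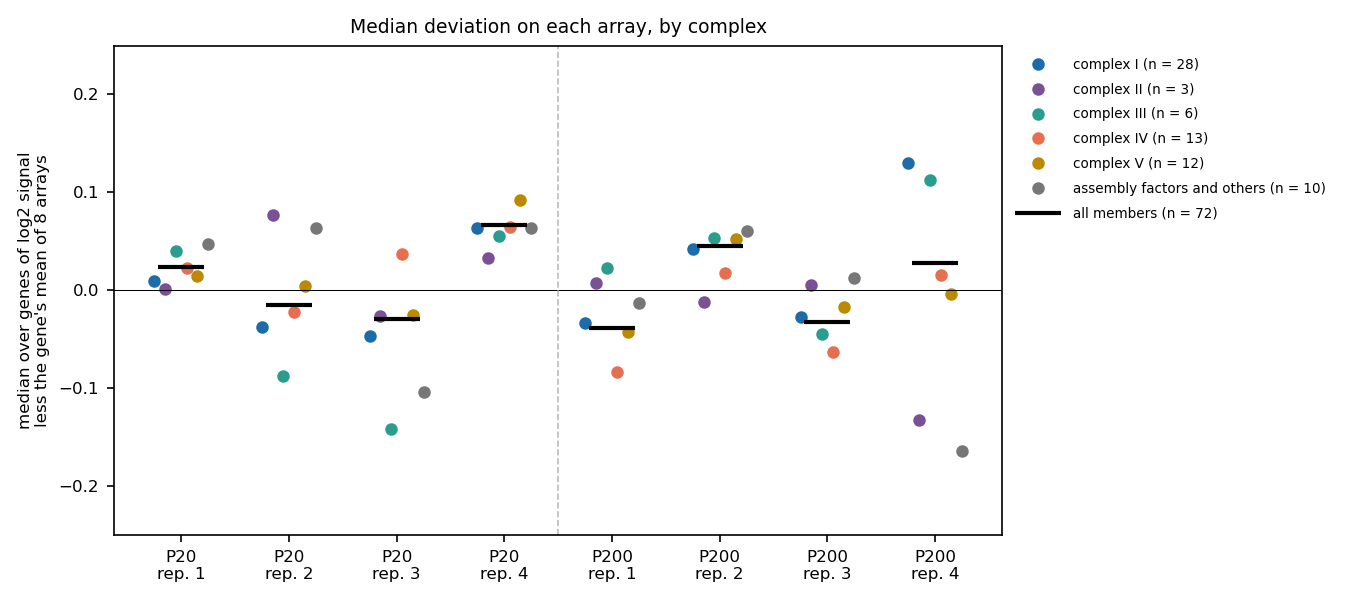
Median over the genes of each complex of log2 signal less the gene's mean of the 8 arrays (vertical axis), for each array (horizontal axis, P20 left and P200 right of the dashed line); points are complexes and black bars all 72 members. The black bars lie between -0.04 and 0.07 on all arrays, and the points spread most on P200 replicate 4, from -0.16 to 0.13.

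Genes around the chain were taken from lists by function, less genes with a probe on rn4 chromosome 7. Between 0% and 13.3% of a list's tested genes passed, against 11.5% of all genes tested. An unadjusted p under 0.05 was found in 23.8% of all genes. Of 33 tested assembly factors outside the name rule, 0 were higher and 1 was lower at P200, Cox17, the copper chaperone of complex IV, with a median change of 0.0029 over the list. Cox17 was at 6.73, 6.68, 6.65 and 6.73 at P20 and at 6.37, 6.51, 6.43 and 6.35 at P200, a change of -0.29 ± 0.06 with an adjusted p of 0.0163 in limma. All 4 P200 arrays were lower, and without P20 replicate 1 the adjusted p was 0.0549. Of 13 genes of cytochrome c and ubiquinone synthesis, 0 passed and 4 had an unadjusted p under 0.05, against 23.8% of all genes. The smallest p was that of Coq10b, a ubiquinone-binding protein, which changed by -0.29 ± 0.09 with an adjusted p of 0.0693 in limma.

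Of 20 genes of the tricarboxylic acid cycle and pyruvate dehydrogenase, 1 was higher and 0 were lower, with 2 at an unadjusted p under 0.05. The gene was Pdk2, a kinase that switches pyruvate dehydrogenase off. It was at 2.26, 2.38, 2.32 and 2.41 at P20 and at 2.71, 2.82, 2.82 and 2.98 at P200, with a change of 0.49 ± 0.07 and an adjusted p of 0.00294 in limma. The P200 arrays were all higher. Of 15 regulators of mitochondrial gene expression, 1 was higher and 1 was lower, or 13.3% called, near the 11.5% of all genes tested. Polg, the polymerase that copies mitochondrial DNA, changed by 0.42 ± 0.07, with P20 arrays from 2.34 to 2.47, P200 arrays from 2.71 to 2.94 and an adjusted p of 0.00708 in limma. Gabpb1, the beta subunit of GABP, changed by -0.37 ± 0.09 with an adjusted p of 0.0354, and its call was lost without any 1 of 5 arrays: P20 replicates 1, 3 and 4 and P200 replicates 2 and 4, with adjusted p from 0.0724 to 0.0957 in limma.

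Of 16 mitochondrial carriers and uncoupling proteins, 0 were higher and 1 was lower. Ucp3, an uncoupling protein best known from skeletal muscle, was at -1.01, -0.84, -1.12 and -1.14 at P20, well above background on all 4 arrays. At P200 it was not well above background on any array, with measured values of -5.16, -5.52, -5.23 and -3.93. It was at least 6.10-fold lower at P200, against the lowest signal well above background on each array or its own where higher. Ucp3 passed the filter through its P20 arrays alone. Its limma call rests on P200 values not well above background, so no p is given. Of 17 genes of cristae and protein import, 0 passed and 1 had an unadjusted p under 0.05, Micos10, a cristae protein, at -0.21 ± 0.08 with an adjusted p of 0.144 in limma. The median changes of the 6 lists lay between -0.02 and 0.0029, beside -0.00022 for all genes. Leaving Ucp3 aside, centring the arrays on their median ended the list calls named here. The adjusted p was then 0.899 for Pdk2 and 0.99997 for Cox17, Polg and Gabpb1 in limma.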

How the data were processed

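RNA from 8 samples was hybridised to single-colour (Cy3) Agilent rat arrays. The deposited intensity values are linear spot signals that the authors read with Agilent Feature Extraction 11.0.1.1, per the submitters' processing notes. Per the file headers, the processed signal has background subtracted, and arrays were not scaled to each other. The deposited series matrix holds the spot median intensity of the same arrays. Its P200 columns 1, 2, 3 and 4 hold scanner files 2, 3, 4 and 1, and replicate numbers here are those of the scanner files.

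Of 62976 spots, 4259 controls and outlier spots were left out, spots of a probe were averaged, and 84 of 45598 probes had no usable spot on some array and were dropped. Log2 processed signal less the 75th percentile of each array was fitted with limma 3.58.1 in R 4.3.3 (lmFit and eBayes, passage as the only term, two-sided). Benjamini-Hochberg adjustment ran over 15516 genes with a threshold of 0.05. The fit was tested on simulated data. Names came from the file and, by accession or symbol, from the RefSeq table of GRCr8, which matched all 100 member probes. The file positions are on rn4.

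Named genes are members past the test or with an unadjusted p under 0.05, the 2 largest changes of each complex in either direction, core subunits among the members, tissue-restricted isoforms and, for each list, genes past the test or the one of smallest p. Ndufv3, Ndufb4, Ndufa10, Ndufa10l1, Cox6a1, Atp5mc1, the first 4 Ndufaf genes and genes named only for a motif fall outside it and were added after their values were seen. The values of 1 member are not reported here, though it is in the counts and medians. The members and lists were chosen with earlier results of these data known. The promoter search, the slide-row differences, the Cox6a1 ratio and leaving chromosome 7 out of the lists were added after seeing the data. The number of arrays limits the precision.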

Additional observations from a re-analysis of the deposited data

Results flagged for a closer look

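In groups of 4 arrays, the lowest or highest array was set against the others by Dixon's test for 42 named genes and the per-array medians of the complexes, 98 groups in all. It marked 4 of them, and chance alone marks about 1 in 20.

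Cox6c-ps1 on P20 replicate 4 was at -0.52, with the nearest P20 array at 0.46. Cox5b on P20 replicate 2 was at 7.26, with the nearest at 7.38, so its gap is small in size. The median deviation of the complex II genes was -0.13 on P200 replicate 4, with the nearest P200 array at -0.01. The median deviation of the assembly factors and others was -0.10 on P20 replicate 3, with the nearest P20 array at 0.05. None of the 4 belongs to Cox6a2 or Ndufaf7.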

How the results depend on the processing

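Besides the values reported, 18 settings were fitted, and 1 other threshold: other centring, normalization, background correction and filters, the series matrix values, other choices of probe, the replicate number or slide row as a block, and each array left out. The count of members lower at P200 was 2 in most and 1, Cox6a2, with median centring and with no filter on dim probes. It was 3 with quantile normalization, which added Ndufaf5, and 5 at an unadjusted p under 0.05, where 1 member was higher. Leaving out each array in turn gave 2 lower and 0 higher throughout. The count of members higher was 0 in all 18 settings. Over all genes, 934 were higher and 857 lower, but 284 and 360 with median centring and 388 and 422 with no filter, where 35840 genes were tested and the median change of all genes was 0.10. The array median lies among dim probes: the 75th percentile stood 3.73 to 4.50 above it (log2), and under median centring that spread between arrays enters every gene, limma gave all genes the same variance and the median SE was 0.26 in place of 0.10. With no filter, dim genes raised it to 0.23. Cox6a2 kept its call in all 18, from -1.02 to -0.73 with adjusted p from 0.000219 to 0.0114 in limma. The median change of the members ran from -0.04 to 0.03.

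Over 42 named genes, 755 values were recomputed: 18 lost a call, 2 gained one, 0 reversed while called, and 2 uncalled ones, Uqcrq and Cox5b, changed sign by more than their spread. With the replicate number as a block, 2 members were lower and 0 higher, the Cox17 call was lost at an adjusted p of 0.0645 and Coq10b gained one at 0.0410 in limma. Same-numbered arrays correlated in their deviations at 0.03, 0.14, -0.0031 and 0.28, and differently numbered arrays at -0.23 to 0.22. The block lowered the median SE over all genes from 0.096 to 0.085. The P200 numbers differ between the scanner files and the series matrix, so these values cannot tell whether cultures were paired. Dim signal limits folds near background.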
